A study of Mus musculus with 31 samples.

Results

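The liver transporters described here are 10 genes that hepatocytes use to take up and excrete bile acids and other organic anions. Slc10a1, Slco1a1, Slco1a4 and Slco1b2 serve uptake from blood. Abcb11, Abcb4, Abcc2 and Atp8b1 work at the canalicular membrane, and Abcc3 and Abcc4 export across the basolateral membrane back to blood. They were found by symbol among 17097 genes to which the array annotation gives probe sets with 1 symbol, and all 10 had at least 1 probe set. Slc10a1 and Slco1a1 had 2 probe sets each, Slco1b2 had 5 and the other genes 1. Where a gene had several, the one with the highest mean over all 31 arrays was used. All 10 genes passed the filter on low values in every comparison, although the probe sets of Atp8b1 and Abcc4 averaged only 15.4 and 9.6 over all arrays, on a table whose lowest value is 3 and whose median is 5 on every array.

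The study measured liver RNA of male mice on a perfect-match Affymetrix array in 8 groups and 3 experiments, to learn what depends on the endoplasmic reticulum (ER) stress sensor IRE1α, encoded by Ern1, and on XBP1, the transcription factor whose mRNA it splices. The first experiment compared Xbp1 ko mice with their WT littermates, both c57BL/6 and 14 weeks old. In the second, all mice were Xbp1 ko, c57BL/6 and 9 weeks old, and liver was taken 8 days after injection of IRE1 siRNA or of luciferase siRNA, a control. The last experiment compared WT mice with Ire1 ko mice, 14 weeks old, untreated or 6 h after 2 mg/kg tunicamycin, an inhibitor of N-glycosylation that causes ER stress. The untreated Ire1 ko group held 3 arrays and each other group 4. By the labels the Ire1 ko mice are of mixed strain and the WT mice c57BL/6, although the untreated WT mice are also named littermates of the Ire1 ko mice; as labelled, genotype and strain cannot be told apart in that experiment. How the genes were deleted, in which cells and with which Cre, is not given in the sources used here. The labels name the untreated mice of the first and last experiments as fed. They do not give the feeding state of the mice with tunicamycin or siRNA, or a vehicle injection for the untreated mice, so feeding, injection and tunicamycin cannot be told apart.

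Bile acids circulate between liver and intestine. Hepatocytes recover them from portal blood, mostly through the sodium-dependent carrier encoded by Slc10a1 and in part through the sodium-independent organic anion carriers of the Slco family, and pump them into bile through the bile salt export pump encoded by Abcb11. Phosphatidylcholine moved into bile by the Abcb4 product shields the canalicular membrane from these detergents, and the basolateral pumps of Abcc3 and Abcc4 offer an overflow route to blood.

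Within groups, arrays correlated at 0.984 to 0.993 over all probe sets, and 0 pairs of arrays were identical. Of 10 hepatocyte marker genes all 10 reached a mean intensity of 16 in every group. Of 7 measured cholangiocyte markers, which stand for the other epithelium of the biliary tree, 0 did so in any group, and their summed intensity lay between 30 and 36 on all arrays. On its brightest probe set Ern1 contradicted the siRNA labels: it read 21, 18, 23 and 35 in the 4 arrays labelled luciferase siRNA and 169, 184, 236 and 230 in the 4 arrays labelled IRE1 siRNA. Differences in that experiment are given as labelled, and exchanging the labels would turn every sign. Xbp1 averaged 943.8 ± 140 in WT littermates and 470 ± 80.3 in Xbp1 ko (SD, n = 4 each), and Ern1 149.2 ± 36.6 (SD, n = 4) in untreated WT and 150.3 ± 2.52 (SD, n = 3) in untreated Ire1 ko. Which part of either gene was removed is not known here, so these probe sets do not measure the loss of protein.

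**Figure D1:**
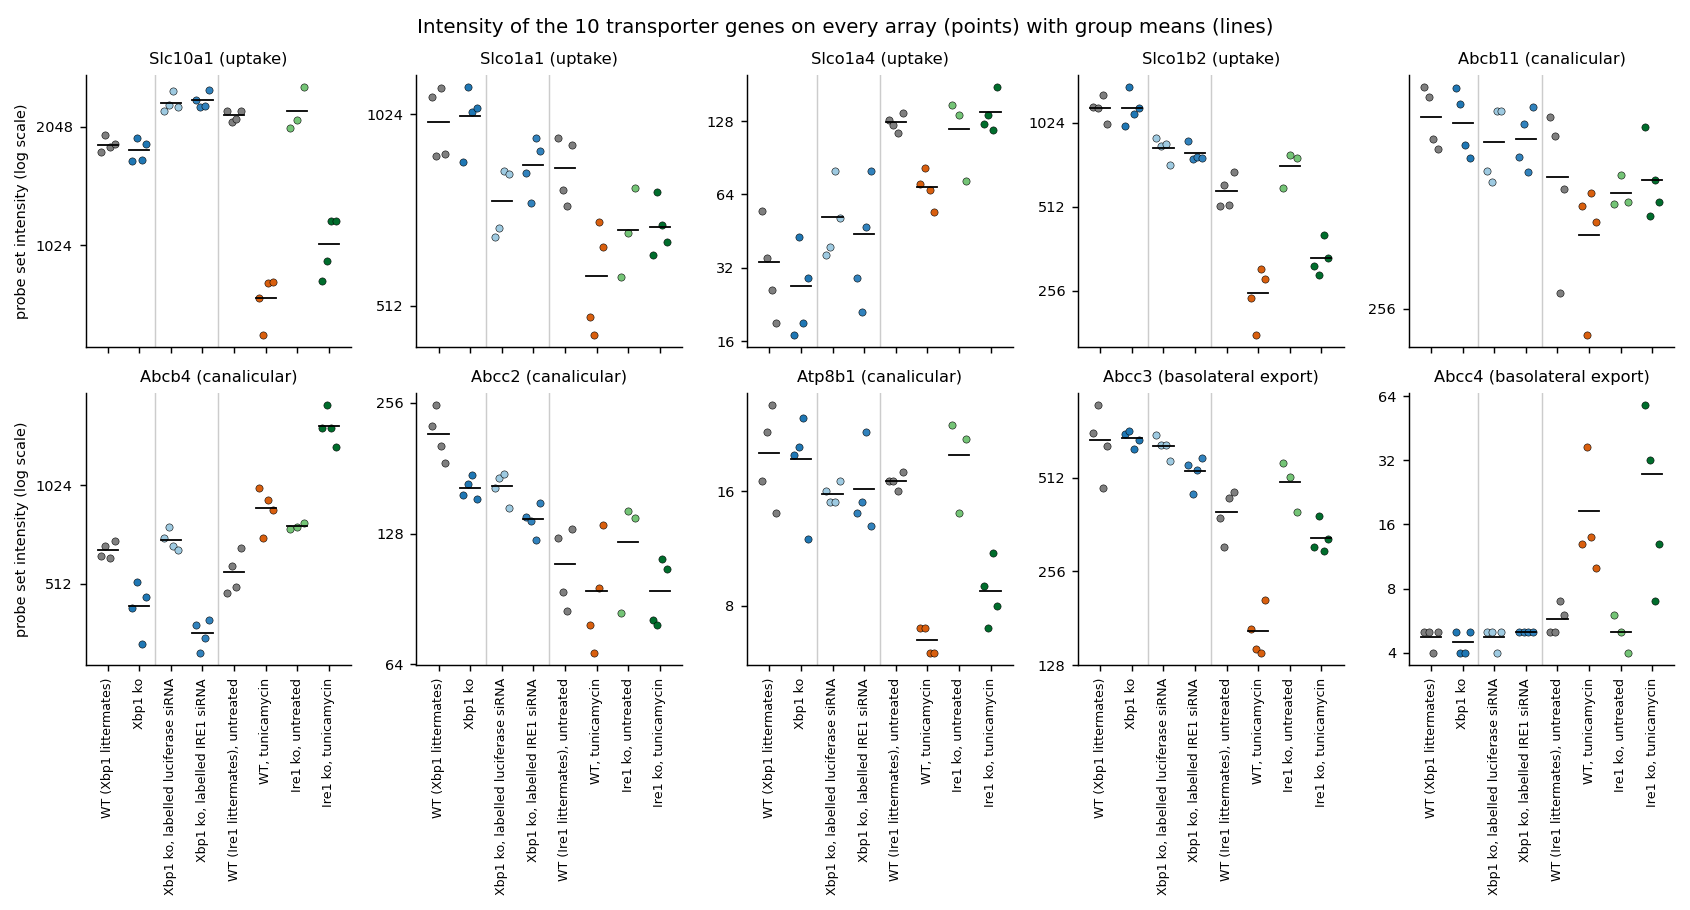
Probe set intensity (log scale) of each of the 10 transporter genes on every array, with points for arrays, black lines for group means and grey vertical lines between the 3 experiments. Slc10a1 lies at 1183 or less on every array from tunicamycin-treated mice and at 1681 or more on every other array, while Abcb4 is highest in Ire1 ko with tunicamycin, at 1343 to 1796.

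The RNA of all 4 uptake genes was lower after tunicamycin in WT liver, and that of 2 of them in Ire1 ko liver. Among the 6 export genes, Abcb4 and Abcc4 rose and Atp8b1 and Abcc3 fell in both genotypes, and Abcb11 and Abcc2 did not pass the test in either. Calls were made at an adjusted p under 0.05 by limma, which fits a linear model to each gene. Only its estimate of the spread draws on all genes. In WT 8 of the 10 genes were called, 6 of them lower and 2 higher. Of all genes tested 36.1% were called, 17.6% lower and 18.5% higher. In Ire1 ko 6 of the 10 were called, 4 lower and 2 higher, against 27.7% of all genes, 10.3% lower and 17.4% higher. Those shares include many dim genes, as do the shares over all genes in later paragraphs. When only genes with a mean of 16 or more in any group were tested, 71% were called in WT and 60.3% in Ire1 ko. The arrays measured whole liver, where fewer hepatocytes and less RNA per hepatocyte cannot be told apart.

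Slc10a1 encodes the main bile acid carrier of the sinusoidal membrane. Its intensity was 2255, 2111, 2151 and 2246 in untreated WT and 752, 606, 820 and 827 after tunicamycin. Ire1 ko liver gave 2038, 2131 and 2590 without and 828, 932, 1183 and 1177 with the drug. No tunicamycin array reached the lowest untreated one in either genotype. Treated and untreated arrays thus differed by -1.55 (SE 0.12; limma adjusted p = 3.209e-08) on the log2 scale in WT and by -1.14 (SE 0.13; adjusted p = 6.088e-06) in Ire1 ko. Its dimmer probe set gave -1.89 and -1.39, both called. After tunicamycin the 4 Ire1 ko arrays lay above the 4 WT arrays, with a log2 difference of 0.45 (SE 0.12; limma adjusted p = 0.01514), and the dimmer probe set gave 0.59 (adjusted p = 0.01079). This call was lost without WT tunicamycin replicate 2 (0.35, adjusted p = 0.05614), without Ire1 ko tunicamycin replicate 3 (0.38, adjusted p = 0.06016) and without its replicate 4 (0.38, adjusted p = 0.05762). The difference between the tunicamycin responses of the genotypes, an interaction term, was 0.42 (SE 0.18; adjusted p = 0.2076) and did not pass.

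Slco1b2 encodes the liver-specific organic anion carrier that is the mouse counterpart of the human OATP1B proteins. It read 516, 611, 521 and 682 in untreated WT and 241, 178, 305 and 282 after tunicamycin. The Ire1 ko arrays read 599, 787 and 763 without and 314, 291, 406 and 334 with the drug. Treated and untreated arrays did not overlap in either genotype. On the log2 scale the difference was -1.23 (SE 0.16; limma adjusted p = 9.029e-06) in WT and -1.09 (SE 0.17; adjusted p = 0.0001311) in Ire1 ko, with an interaction of 0.14 (95% interval -0.36 to 0.63; adjusted p = 0.8193).

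The name of the Slco1b2 probe set that was used marks it as one whose probes can match several transcripts, so the other probe sets of the gene bear on this value. Of its other 4, the 2 that lay above the floor fell as well, by 1.21 and 1.12 on the log2 scale in WT and by 0.94 and 1.19 in Ire1 ko, each called. The other 2, with means of 4.7 and 4.6 over all arrays, gave no call. The plot of the brighter probe sets shows both genes and Slco1a1 array by array.

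**Figure D2:**
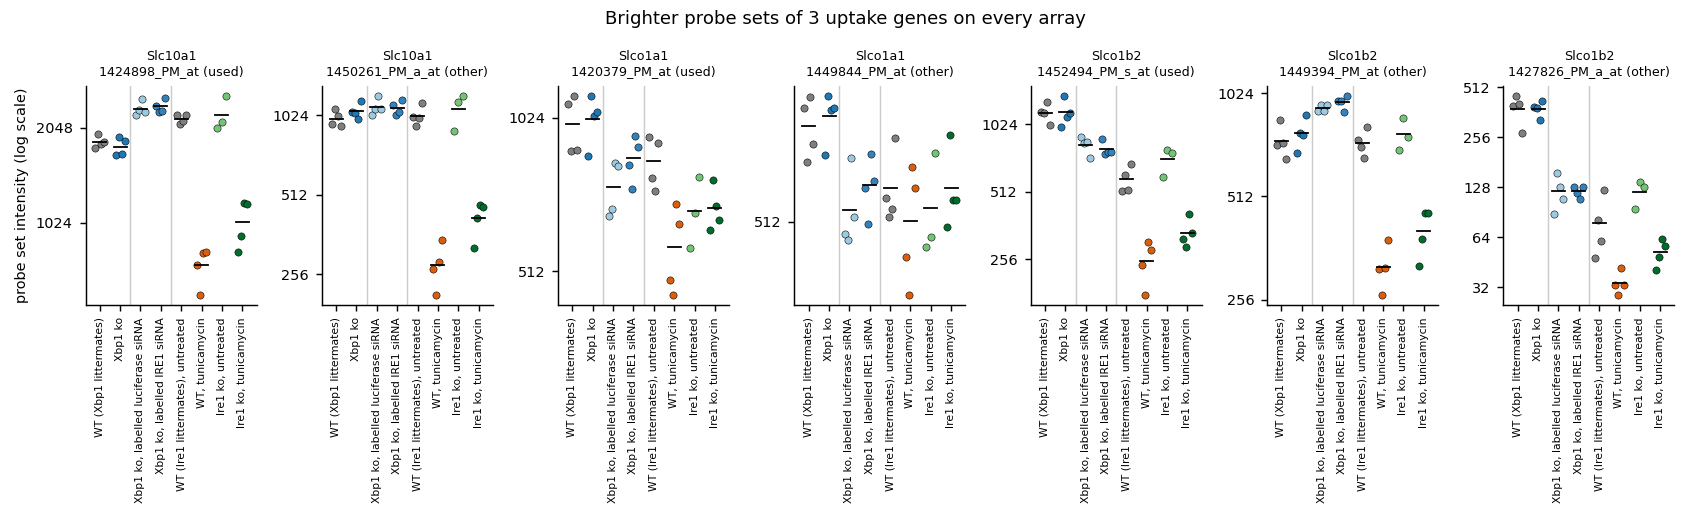
Intensity (log scale) of the probe sets of Slc10a1, Slco1a1 and Slco1b2 with a mean of at least 16, on every array; points are arrays, black lines group means and grey vertical lines separate the experiments. Both probe sets of Slc10a1 and all 3 of Slco1b2 are lower with tunicamycin in both genotypes, while the 2 of Slco1a1 overlap more between groups.

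Promoter sequences of the 2 uptake genes that fell in both genotypes, and of Abcb4, which rose in both, are shown because these genes moved with treatment in opposite directions. They are RefSeq sequences of the mouse build GRCm38.p6, read 5′ to 3′ on the strand of the gene, and promoters of 8 of the 10 genes were used. The interval of Slc10a1 is chr12:80968706-80968955 on the minus strand, that of Slco1b2 chr6:141629268-141629481 on the plus strand and that of Abcb4 chr5:8893471-8893643 on the plus strand. For Slco1b2 184 of the 214 bases and for Abcb4 143 of the 173 bases lie before the annotated gene. The capitals in Slco1b2 mark the only match to a motif searched, which begins at the first base of the annotated gene.
Slc10a1: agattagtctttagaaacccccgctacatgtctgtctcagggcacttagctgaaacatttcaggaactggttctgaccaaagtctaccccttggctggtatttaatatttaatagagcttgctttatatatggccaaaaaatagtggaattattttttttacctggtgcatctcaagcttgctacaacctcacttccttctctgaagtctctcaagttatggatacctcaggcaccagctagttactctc
Slco1b2: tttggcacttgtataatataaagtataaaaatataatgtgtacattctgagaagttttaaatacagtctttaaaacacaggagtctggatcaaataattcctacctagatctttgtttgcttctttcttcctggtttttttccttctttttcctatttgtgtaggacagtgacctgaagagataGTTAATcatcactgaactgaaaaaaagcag
Abcb4: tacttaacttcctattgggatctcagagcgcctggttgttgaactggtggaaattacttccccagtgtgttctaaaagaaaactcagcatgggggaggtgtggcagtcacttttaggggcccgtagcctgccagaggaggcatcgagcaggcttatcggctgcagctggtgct

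Motifs were searched as 7 strings on both strands of the 250 bases before a transcript start of the RefSeq promoter table, in 32851 windows of the same length. The start with the window farthest upstream was taken for each gene, and the annotated gene can begin before it. The windows of Slc10a1, Slco1a1, Abcb11 and Abcc2 lie wholly before the annotated gene, those of Slco1a4, Slco1b2 and Abcb4 with 186, 184 and 143 bases, and that of Abcc4 lies wholly inside it. GTTAAT, the half-site of the hepatocyte factor HNF1, occurred in 6.43% of them and in Slco1b2, inside the annotated gene and beginning 66 bases before the transcript start. TGACNNNGC, the core of the antioxidant response element, occurred in 10.2% of promoters, in Abcc2 as TGACATAGC at 98 bases before the transcript start, and in Abcc4 on the other strand. TTGCNNAA, a site of C/EBP factors, occurred in 9.56% and in Abcc4, so both matches of that gene lie within it. TGATGNAA (C/EBP-ATF, 3.45%), TGACGTGG (XBP1 and ATF6 core, 0.563%), the ER stress element (0.113%) and the inverted repeat of the bile acid receptor FXR (0.00609%) had no match in the windows of the 8 genes searched. Slc10a1, Slco1a1, Slco1a4, Abcb11 and Abcb4 held none of the 7 strings. A match in these letters is a description and shows no binding.

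Slco1a1 and Slco1a4 encode organic anion carriers of the same family whose liver RNA is known to be higher in male and in female mice, respectively. Slco1a1 read 939, 779, 736 and 915 in untreated WT and 492, 461, 694 and 634 after tunicamycin, a log2 difference of -0.58 (SE 0.14; limma adjusted p = 0.002811). In Ire1 ko it read 568, 667 and 784 without and 616, 772, 686 and 646 with the drug, 0.02 (95% interval -0.29 to 0.33; adjusted p = 0.9318). The WT groups did not overlap and the Ire1 ko groups did. The second probe set of Slco1a1 gave -0.22 in WT (adjusted p = 0.4175), and the mean over both probe sets did not pass (-0.40, adjusted p = 0.05984). The interaction was 0.60 (SE 0.20; limma adjusted p = 0.09081).

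Slco1a4 was the 1 gene of the 10 whose tunicamycin response differed between the genotypes by the interaction term, against 7.53% of all genes tested, 3.58% with a higher and 3.95% with a lower response in Ire1 ko. When only genes with a mean of 16 or more in any group were tested, the share was 20.2%, and Slco1a1 and Abcc3 were called too. For Slco1a4 the arrays were as follows. It read 129, 124, 115 and 138 in untreated WT and 71, 82, 67 and 54 after tunicamycin. Ire1 ko arrays read 149, 136 and 73 without and 125, 136, 118 and 177 with the drug. The WT arrays separated by treatment, the Ire1 ko arrays overlapped, and 1 untreated Ire1 ko array, replicate 3, lay as low as the treated WT arrays. On the log2 scale the tunicamycin difference was -0.90 (SE 0.20; limma adjusted p = 0.001558) in WT and 0.27 (SE 0.21; adjusted p = 0.4267) in Ire1 ko. The interaction was 1.17 (SE 0.29; adjusted p = 0.02061), and it was not called in 1 fit over all 31 arrays (adjusted p = 0.1434). After tunicamycin Slco1a4 was higher in Ire1 ko than in WT by 1.02 (SE 0.20; adjusted p = 0.001357).

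The canalicular genes did not move as a group. Abcb4, the phosphatidylcholine floppase, read 480, 581, 500 and 660 in untreated WT and 1002, 707, 920 and 860 after tunicamycin. Ire1 ko liver gave 754, 761 and 785 without and 1530, 1796, 1532 and 1343 with the drug. All treated arrays lay above the untreated ones of their genotype, and the treated Ire1 ko arrays lay above all others of the experiment. The log2 difference was 0.65 (SE 0.12; limma adjusted p = 0.0002827) in WT and 1.01 (SE 0.13; adjusted p = 1.573e-05) in Ire1 ko. The interaction was 0.36 (95% interval -0.01 to 0.72; adjusted p = 0.2768). Between genotypes after tunicamycin Abcb4 was higher in Ire1 ko by 0.83 (SE 0.12; adjusted p = 7.353e-05).

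Abcb11, the bile salt export pump, read 440, 417, 268 and 359 in untreated WT and 342, 238, 355 and 327 after tunicamycin, and the groups overlapped. In Ire1 ko it read 344, 374 and 346 without and 428, 333, 368 and 346 with the drug. The log2 difference was -0.23 (95% interval -0.55 to 0.09; limma adjusted p = 0.2833) in WT and 0.05 (95% interval -0.30 to 0.40; adjusted p = 0.8844) in Ire1 ko. Without untreated WT replicate 3, the low array, the WT difference was -0.37 and passed (adjusted p = 0.04224).

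Abcc2 encodes the canalicular pump for bilirubin glucuronides and other conjugates, and its only probe set bears the same mark as that used for Slco1b2. It read 125, 94, 85 and 131 in untreated WT and 79, 68, 96 and 134 after tunicamycin, with a log2 difference of -0.23 (95% interval -0.70 to 0.24; limma adjusted p = 0.4935). In Ire1 ko it read 84, 144 and 139 without and 81, 79, 112 and 106 with the drug, -0.35 (95% interval -0.86 to 0.16; adjusted p = 0.3466). The groups overlapped in both genotypes.

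Atp8b1, a phospholipid flippase that keeps the canalicular membrane resistant to bile salts, lay near the floor of the table. It read 17, 17, 16 and 18 in untreated WT and 7, 7, 6 and 6 after tunicamycin. The Ire1 ko values were 24, 14 and 22 without and 9, 7, 11 and 8 with the drug. The groups did not overlap in either genotype. On the log2 scale the values differed by -1.39 (SE 0.17; limma adjusted p = 4.139e-06) in WT and -1.17 (SE 0.18; adjusted p = 0.0001047) in Ire1 ko, on values that are rounded to whole numbers and close to the floor.

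The basolateral exporters went opposite ways. Abcc3 read 380, 307, 440 and 461 in untreated WT and 167, 144, 140 and 208 after tunicamycin, a log2 difference of -1.27 (SE 0.15; limma adjusted p = 5.129e-06). The Ire1 ko values were 571, 517 and 398 without and 306, 385, 299 and 326 with the drug, -0.58 (SE 0.17; adjusted p = 0.0152). Treated arrays lay below untreated ones in both genotypes, by a narrow gap in Ire1 ko. There the call was lost without untreated replicate 1 (-0.47, adjusted p = 0.08038) and without untreated replicate 2 (-0.54, adjusted p = 0.05977). After tunicamycin Abcc3 was higher in Ire1 ko than in WT by 1.01 (SE 0.15; adjusted p = 0.0001713), with no overlap. The interaction was 0.69 (limma adjusted p = 0.08723).

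Abcc4 was close to the floor in untreated liver, with 5, 5, 7 and 6 in WT and 6, 5 and 4 in Ire1 ko. After tunicamycin it read 13, 37, 14 and 10 in WT and 58, 32, 7 and 13 in Ire1 ko. In each genotype the treated values all lay above the untreated ones, and they were spread widely within each treated group. The log2 difference was 1.501 (SE 0.51; limma adjusted p = 0.02894) in WT and 2.04 (SE 0.55; adjusted p = 0.009959) in Ire1 ko. The WT call was lost without tunicamycin replicate 2, the array at 37 (1.10, adjusted p = 0.1156), without untreated replicates 1, 2 or 4 (1.44 to 1.53, adjusted p = 0.05659 to 0.07184) and with no filter on low values (adjusted p = 0.06308). In each treated group the array with the highest Abcc4 held the lowest Slc10a1, 37 beside 606 in WT and 58 beside 828 in Ire1 ko.

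Compared after tunicamycin, 4 of the 10 genes were higher in Ire1 ko than in WT and 0 were lower, against 9.68% of all genes called higher, 8.5% lower and 18.2% called in all. When only genes with a mean of 16 or more in any group were tested, 43.2% of 6435 were called, 1564 of them higher. Slco1b2 was then called too (limma adjusted p = 0.03504). The 4 called over all genes were Slc10a1, Slco1a4, Abcb4 and Abcc3, and their arrays did not overlap between genotypes, which held for 19.5% of all genes tested. For Slc10a1 the gap was narrow, with the highest WT array at 827 and the lowest Ire1 ko array at 828. The median over the 10 was 0.42, against 0.01 over all genes tested. Slco1b2 stood at 0.44 (adjusted p = 0.07023) and Atp8b1 at 0.41 (limma adjusted p = 0.1079). These values share the treated arrays with the tunicamycin comparisons above.

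**Figure D3:**
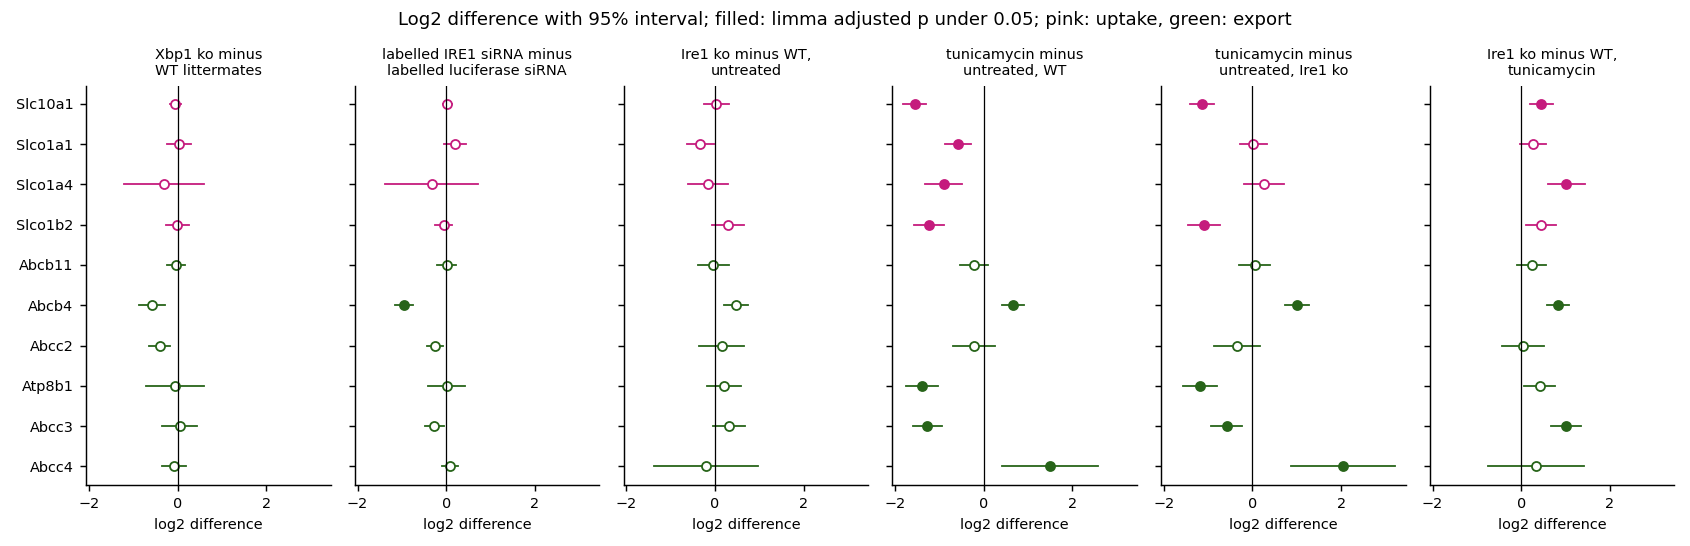
Log2 difference of each of the 10 transporter genes in 6 comparisons, with the 95% interval as a line; filled points have a limma adjusted p under 0.05, pink marks uptake and green export genes. The uptake genes lie at -0.58 to -1.55 in WT with tunicamycin, while Abcb4 and Abcc4 lie above 0 there and in Ire1 ko.

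Uptake and export were set side by side as the mean log2 deviation of the 4 uptake and of the 6 export genes from the control group of the same experiment, on each array. In untreated WT the uptake mean minus the export mean lay between -0.04 and 0.05. With tunicamycin it lay between -1.10 and -0.69 in WT, where uptake averaged -1.06 ± 0.16 and export -0.16 ± 0.02 (SD, n = 4). All 4 treated WT arrays thus lay below the untreated ones.

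In Ire1 ko uptake minus export lay between -0.28 and -0.10 without and between -1.25 and -0.57 with tunicamycin. Uptake averaged -0.52 ± 0.13 and export 0.32 ± 0.20 in the treated Ire1 ko arrays (SD, n = 4). Without Abcc4, whose values start at the floor, uptake minus export lay between -0.70 and -0.39 in treated WT and between -0.69 and -0.36 in treated Ire1 ko, against -0.31 to -0.16 in untreated Ire1 ko. The separation by treatment remained without Abcc4, and it was narrower. These are descriptions over chosen genes and carry no test.

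By single genes the median log2 difference was -1.06 over the uptake genes and -0.23 over the export genes in WT with tunicamycin, against -0.02 over all genes tested. In Ire1 ko the medians were -0.53 and -0.15, against 0.00 over all genes. With all probe sets of a gene averaged, those of Slco1b2 near the floor included, the uptake medians were -0.84 and -0.34. The export median mixes Atp8b1 and Abcc3, which fell, with Abcb4 and Abcc4, which rose.

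**Figure D4:**
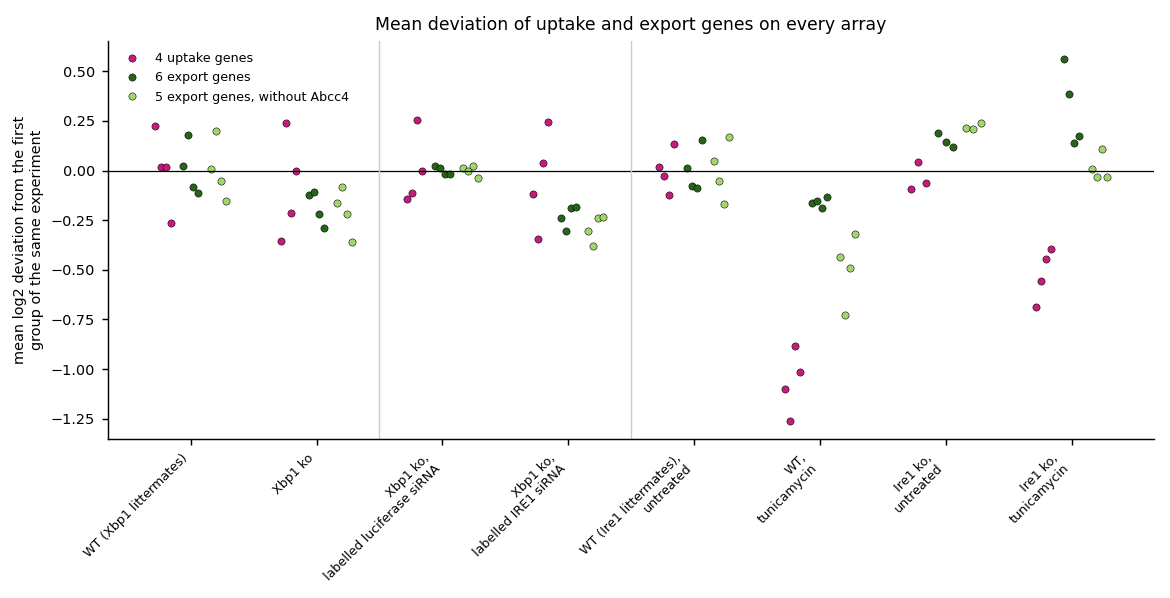
Mean log2 deviation of the 4 uptake genes, the 6 export genes and the 5 export genes without Abcc4 from the first group of the same experiment, 1 point per array for each set, with grey vertical lines between experiments. In treated WT the uptake points average -1.06 and the export points -0.16, and the arrays labelled IRE1 siRNA have export points that average -0.23.

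Some cell type markers were called after tunicamycin too, in both genotypes. The share called among all genes tested was 36.1% in WT and 27.7% in Ire1 ko. The summed intensity of 10 hepatocyte markers was 38741 to 42045 in untreated and 37541 to 38442 in treated WT, with 4 markers called lower and 1 higher, and 39307 to 41791 and 40068 to 41632 in Ire1 ko, with 2 called lower and 1 higher. The summed intensity of 8 markers of Kupffer cells, the macrophages of the liver, was 633 to 1299 in untreated and 429 to 600 in treated WT, with 2 called lower. In Ire1 ko it was 612 to 2033 and 656 to 933, with 0 called by limma and 0 at an unadjusted p under 0.05. For 8 endothelial markers the sum was 776 to 1032 and 544 to 683 in WT, with 4 called lower and 1 higher, and 703 to 1106 and 655 to 935 in Ire1 ko, with 2 called lower and 0 higher. By the interaction term limma called 0 of these 10, 8 and 8 markers, with 0, 0 and 1 at an unadjusted p under 0.05. That term was called for 7.53% of all genes tested. The part of these shifts in the transporter values was not tested.

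Several nuclear receptors and other factors known to control transporter genes were lower after tunicamycin as well. Of 14 measured regulators 8 fell and 0 rose in WT, with a median of -0.96. Of all genes tested 17.6% were called lower and 18.5% higher in WT, and 10.3% and 17.4% in Ire1 ko. Nr0b2, the small heterodimer partner that is a target of the bile acid receptor, fell from 157.8 to 6.5 on average, the latter near the floor of the table, a log2 difference of -4.57 (SE 0.32; limma adjusted p = 8.368e-09). Foxa2, a forkhead factor of bile acid homeostasis that averaged 8.75 in treated WT, also near the floor, stood at -3.14, Ppara, the receptor for fatty acids, at -2.84 and Nr1i3, the xenobiotic receptor CAR, at -2.82. In Ire1 ko 8 fell and 3 rose, with Nr0b2 at -2.76, Nr1i3 at -2.61, Ppara at -1.88 and Foxa2 at -1.42.

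After tunicamycin 10 of the 14 regulators were higher in Ire1 ko than in WT and 0 lower, among them Nr0b2 (1.88), Cebpa (1.09), Ahr (1.06) and Klb (0.996). The shares over all genes tested were 9.68% higher and 8.5% lower. By the interaction term 7 of the 14 differed, all with the response in Ire1 ko less negative or more positive than in WT. That direction was called for 3.58% of all genes tested and the other for 3.95%. Nr0b2 (1.81, SE 0.47), Foxa2 (1.72, SE 0.28), Cebpa (1.54, SE 0.28) and Klb, the coreceptor of the intestinal hormone FGF15 (1.03, SE 0.22), were the largest by value, the first 2 with treated WT arrays near the floor. Leaving out 1 of the 15 arrays ended the interaction call of Nr0b2 in 6 fits (1.41 to 2.02 over all 15, adjusted p up to 0.06009), namely those without untreated WT replicates 3 or 4, WT tunicamycin replicates 2 or 3, or untreated Ire1 ko replicates 2 or 3.

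Membrane partners are proteins that anchor transporters or carry them to the canaliculus. Of 15 such genes 7 fell and 1 rose in WT, and 3 fell and 1 rose in Ire1 ko. The shares over all genes tested were 17.6% lower and 18.5% higher in WT, and 10.3% and 17.4% in Ire1 ko. Pdzk1, a scaffold that binds organic anion carriers, fell by 2.10 in WT and by 1.03 in Ire1 ko on the log2 scale, and Slc9a3r1, a related scaffold, stood at -1.52 and -1.02. Myo5b, the motor for apical recycling, averaged 33.75 and 15.25 in untreated and treated WT and 28.33 and 32.75 in Ire1 ko, with an interaction of 1.36 (SE 0.20; limma adjusted p = 0.0003934). Hax1, a protein that binds the bile salt export pump, rose by 1.56 and 1.03.

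Bile acid synthesis fell for 12 and rose for 1 of 17 genes in WT. In Ire1 ko it fell for 11 and rose for 2. Over all genes tested 17.6% were called lower and 18.5% higher in WT, and 10.3% and 17.4% in Ire1 ko. Akr1d1, the steroid reductase of the pathway, stood at -2.08 and -2.33, and Hsd3b7 at -1.63 and -1.48. Cyp7a1, the rate-limiting enzyme, averaged 342.7 and 155.2 in WT and 326.7 and 459 in Ire1 ko. The WT response of Cyp7a1 passed (-1.89, limma adjusted p = 0.03482), but not without untreated WT replicates 1, 2 or 4 or WT tunicamycin replicates 1 or 2 (adjusted p up to 0.1303), and its interaction did not pass (adjusted p = 0.1489). Of 16 other hepatocyte transporters tested, 11 fell in WT and 9 in Ire1 ko and 0 rose. Among them were the sterol exporters Abcg5 (-3.04 and -3.03) and Abcg8, which averaged 94.75 and 6.5 in WT and 106 and 10.75 in Ire1 ko. The treated values of Abcg8 lay near the floor, so its differences (-3.84 and -3.23) depend on that floor.

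Among targets of NRF2, the oxidative stress factor that is known to act on Abcc genes, 3 rose and 7 fell of 13 in WT and 2 rose and 5 fell in Ire1 ko. Srxn1 rose by 2.19 and 2.74, while Gclc stood at -1.53 and -0.96. Among 10 targets of the receptors CAR and PXR, 1 rose and 3 fell in either genotype, and the riser was Cyp2b10 (4.63 and 4.42). Over all genes tested 18.5% were called higher and 17.6% lower in WT, and 17.4% and 10.3% in Ire1 ko. Of genes higher in male liver 5 of 9 fell in WT, with Hsd3b5 at -2.52, and 4 of 9 in Ire1 ko, where Hsd3b5 lost its call without untreated replicates 2 or 3 (adjusted p up to 0.08297); of genes higher in female liver 2 of 10 fell and 1 rose in WT, and 1 fell in Ire1 ko.

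**Figure D5:**
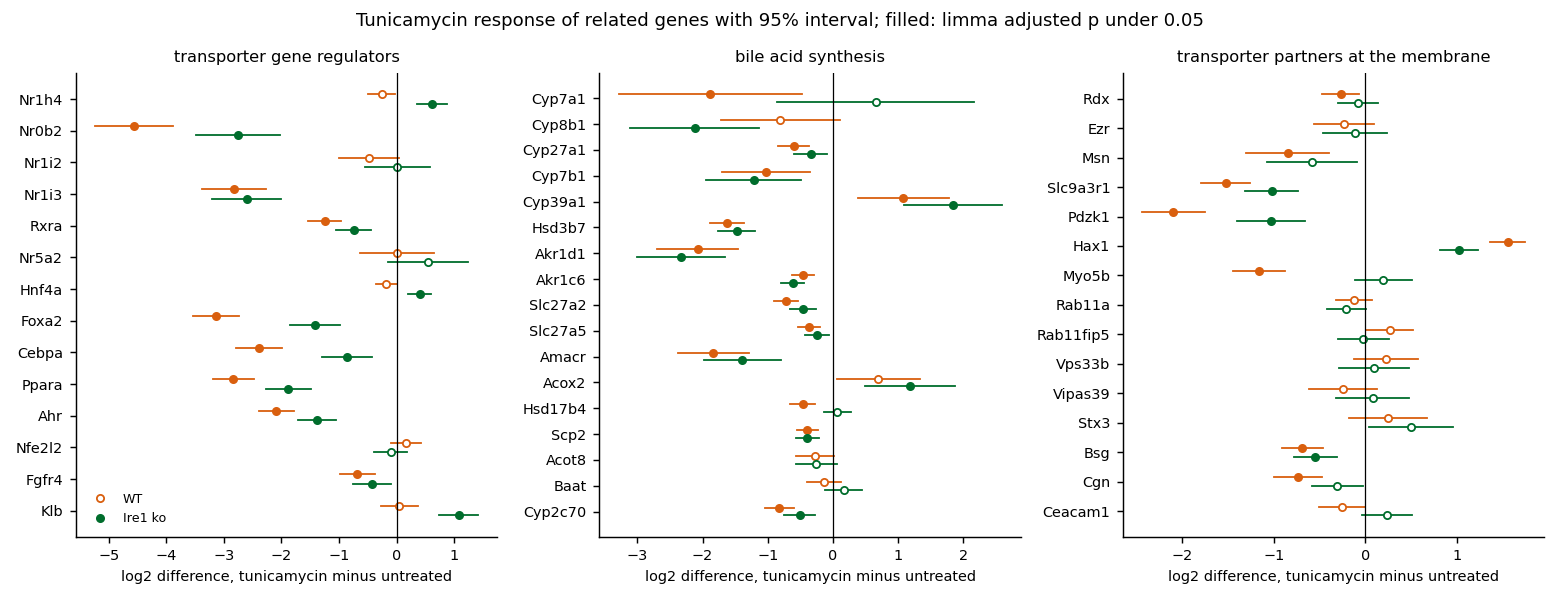
Log2 difference between tunicamycin and untreated arrays, with 95% intervals, for measured regulators of transporter genes, bile acid synthesis genes and membrane partners, in WT (orange) and Ire1 ko (green); filled points have a limma adjusted p under 0.05. Nr0b2 lies at -4.57 in WT and -2.76 in Ire1 ko, and Hax1 and Cyp39a1 lie above 0 in both.

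Without tunicamycin no transporter passed the test between genotypes. In untreated Ire1 ko against WT, limma called 0 of the 10 genes, with 2 at an unadjusted p under 0.05, against 0.943% of all genes called, 0.0791% higher and 0.863% lower. Abcb4, at 754, 761 and 785 in Ire1 ko and 480, 581, 500 and 660 in WT, was the 1 gene of the 10 whose arrays did not overlap, against 4.98% of all genes tested, with a log2 difference of 0.48 (SE 0.13; limma adjusted p = 0.1084); in 1 fit over all 31 arrays it passed (adjusted p = 0.04527). Slco1a1 stood at -0.33 (SE 0.15; adjusted p = 0.4948), with overlapping arrays. The uptake median was -0.06 and the export median 0.18, against -0.03 over all genes tested. The interval for Slc10a1 was -0.25 to 0.31. Of 17 bile acid synthesis genes, 14 regulators, 16 other transporters and 15 membrane partners limma called 0, with 0, 4, 4 and 1 at an unadjusted p under 0.05.

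Between Xbp1 ko and WT littermates limma also called 0 of the 10 genes, with 2 at an unadjusted p under 0.05, against 2.71% of all genes called, 0.642% higher and 2.07% lower. Abcb4 read 623, 670, 614 and 691 in WT and 431, 517, 335 and 468 in Xbp1 ko, with no overlap and a log2 difference of -0.59 (SE 0.13; limma adjusted p = 0.05813). Abcc2 read 227, 253, 204 and 186 in WT and 157, 167, 175 and 154 in Xbp1 ko, again with no overlap, -0.41 (SE 0.10; limma adjusted p = 0.1019). The arrays did not overlap for these 2 of the 10 genes, against 7.02% of all genes tested.

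Whether these 2 values passed depended on the processing, and most alternative settings gave no call. Abcb4 was called in 5 of 16 alternatives, with limma adjusted p from 0.001071 to 0.1531 over all 16. Abcc2 was called in 3 of 16, with adjusted p from 0.03349 to 0.2488. Abcb4 was called with a filter at a group mean of 16 (adjusted p = 0.006913), in 1 fit over all 31 arrays (adjusted p = 0.001071), after brighter probe sets were brought to a common median (adjusted p = 0.01678), and without Xbp1 ko replicate 2 (adjusted p = 0.04643) or replicate 3 (adjusted p = 0.03547). Abcc2 was called with the filter (adjusted p = 0.03349), with the common median (adjusted p = 0.0405) and without WT littermate replicate 4 (adjusted p = 0.04961).

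No uptake gene passed in Xbp1 ko, and the intervals differed in width. Slc10a1 read 1766, 1952, 1823 and 1849 in WT and 1681, 1918, 1691 and 1855 in Xbp1 ko, a log2 difference of -0.05 (95% interval -0.18 to 0.08). Slco1b2 stood at 0.00 (95% interval -0.25 to 0.25) and Slco1a1 at 0.03 (95% interval -0.23 to 0.30). Slco1a4, which read 55, 35, 26 and 19 in WT and 17, 43, 19 and 29 in Xbp1 ko, had an interval of -1.22 to 0.60. The medians were -0.03 over the uptake and -0.07 over the export genes. Abcb11 stood at -0.02 (95% interval -0.23 to 0.18) and Abcc3 at 0.05 (95% interval -0.34 to 0.43).

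Related genes that passed in Xbp1 ko were 2 of 17 for bile acid synthesis, 1 of 14 regulators, 1 of 16 other transporters and 0 of 15 membrane partners, the last with 1 at an unadjusted p under 0.05 (limma). Cyp7a1 rose from 56.75 to 180 on average, a log2 difference of 1.75 (SE 0.35; limma adjusted p = 0.04335), and Slc27a5, which activates bile acids for conjugation, fell by 0.75 (SE 0.06; adjusted p = 0.0004707). Nr1h4, the bile acid receptor FXR, rose by 0.59 (SE 0.08) and Slco2b1, another organic anion carrier, fell by 0.53 (SE 0.10). Of 10 CAR and PXR targets 4 fell and 1 rose, with Cyp2c55 at -2.18, Ces2a at -1.43 and Gstm2 at -1.16. In this comparison 2.07% of all genes tested were called lower and 0.642% higher. Leaving out 1 of the 8 arrays ended the call of Cyp7a1 in 7 fits, all but that without WT littermate replicate 4 (adjusted p up to 0.1379). It did so for Cyp2c55 in 7, all but that without Xbp1 ko replicate 1, and for Slco2b1 in 6, all but those without WT littermate replicate 4 or Xbp1 ko replicate 2, with limma adjusted p up to 0.1231 for both.

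In the siRNA experiment 1 of the 10 genes was called, as lower, against 1.79% of all genes, 0.649% higher and 1.14% lower. When only genes with a mean of 16 or more in any group were tested, the share called was 6.82%. Abcb4 read 708, 763, 667 and 647 in the arrays labelled luciferase siRNA and 382, 315, 350 and 398 in those labelled IRE1 siRNA. Both groups were far apart, with means of 696.2 ± 51.2 and 361.2 ± 36.7 (SD, n = 4 each) and a log2 difference of -0.95 (SE 0.09; limma adjusted p = 0.001841) as labelled. Read by Ern1 instead of by the labels, Abcb4 was high in the 4 arrays where Ern1 was at 18 to 35 and low in the 4 where Ern1 was at 169 to 236.

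The other 5 export genes did not pass in that experiment. Abcc2 read 163, 172, 176 and 147 in the arrays labelled luciferase and 140, 137, 124 and 151 in those labelled IRE1, -0.25 (SE 0.08; limma adjusted p = 0.1829). Abcc3 read 704, 655, 656 and 579 against 564, 455, 545 and 592, -0.27 (SE 0.09; adjusted p = 0.2195), and both genes overlapped between the groups. Abcb11 stood at 0.02 (95% interval -0.20 to 0.23), Atp8b1 at 0.01 and Abcc4 at 0.08. The uptake genes Slc10a1, at 0.03 (95% interval -0.08 to 0.13), Slco1b2, at -0.06 (95% interval -0.25 to 0.12), and Slco1a1, at 0.19 (95% interval -0.06 to 0.44), did not pass, and Slco1a4 was too variable for a narrow interval (-1.38 to 0.71). Abcc4 read 4 or 5 on all 8 arrays. Of the related genes Slc27a5 (-0.59), Slco2b1 (-0.71) and Ephx1, a target of NRF2 (0.53), passed. Slc27a5 kept its call in all 8 fits that left out an array, while Slco2b1 lost it in 6, all but those without replicates 1 or 3 labelled IRE1 siRNA (limma adjusted p up to 0.08855), and Ephx1 in 6, all but those without replicate 4 labelled luciferase or replicate 3 labelled IRE1 siRNA (adjusted p up to 0.07344).

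The order of the group means can be given for each gene, and neighbours in it mostly overlapped. For Abcb4 it ran from 1550 ± 186 in Ire1 ko with tunicamycin through WT with tunicamycin (872.2 ± 125), untreated Ire1 ko (766.7 ± 16.3), Xbp1 ko labelled luciferase siRNA, WT littermates of Xbp1 ko (649.5 ± 37) and untreated WT (555.2 ± 82.4) to Xbp1 ko (437.8 ± 77) and Xbp1 ko labelled IRE1 siRNA. Only the first of these 8 groups did not overlap with its neighbour. For Slc10a1 it ran from 2394 ± 112 in Xbp1 ko labelled IRE1 siRNA to 1030 ± 178 in Ire1 ko with tunicamycin and 751.2 ± 103 in WT with tunicamycin, and the last 2 groups overlapped with neither each other nor the group above. For Abcb11 the means spanned 440 ± 37.7 to 315.5 ± 52.9, and every neighbour overlapped with the next.

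Across experiments the WT groups differed for several genes, in mice that are not littermates of each other. Slco1a4 averaged 33.75 ± 15.6 in the WT littermates of Xbp1 ko and 126.5 ± 9.61 in untreated WT of the Ire1 experiment, and Abcc2 217.5 ± 29 and 108.8 ± 22.7 (SD, n = 4 each). For Slco1b2 the probe sets disagreed: the one used averaged 1158 and 582.5, another 741.5 and 734.2, and the dimmest above the floor 380.8 and 78.5. Experiment, litter and array handling cannot be told apart here, so no test was made across experiments.

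The genes whose log2 values were most like each transporter over the 31 arrays were found by Pearson correlation. For Slc10a1 they were Hgd, Klkb1 and Cpt2 (0.976, 0.973 and 0.973) and for Slco1b2 Anapc13, Decr2 and Mgst1 (0.963, 0.962 and 0.959). For Abcc3 they were Gclc, Fbxo3 and Fxyd1, with Gclc at 0.949, and for Abcc4 Fem1c, Hfe and Srxn1, with Fem1c at 0.912. For Atp8b1 they were Lpar6, Cmtm6 and Micos13, with Lpar6 at 0.906. All arrays share the differences between the 8 groups, and after group means were taken out the value was 0.682 for Hgd, 0.472 for Gclc and 0.741 for Fem1c.

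For Abcb4 the most similar genes were Marchf6 (0.910), Slc25a17 (0.906) and Pcbp2 (0.900), and within groups the first 2 of these fell to 0.079 and -0.151. For Abcc2 they were Cyp2c50 (0.909), Nadk2 (0.871) and Tdo2 (0.865), with Cyp2c50 at 0.818 within groups. Abcb11 had the weakest neighbours of the 10 genes, Eva1a (0.739), Apoa2 (0.730) and C2cd2 (0.726). Those of Slco1a1 were Ccni, C1d and Atp5g3, with Ccni at 0.856, and those of Slco1a4 Nudt9, Cyp2c39 and Pkdcc, with Nudt9 at 0.819.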

How the data were processed

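Liver RNA of 31 mice was measured on perfect-match Affymetrix arrays. The authors deposited intensity per probe set as whole numbers that are not log-transformed; per the submitters' processing notes the values were made with RMA and the affy package, whose versions are not given in the sources used here. Whether the arrays were normalized in 1 run is not given either. RMA forces like distributions on the arrays, and fold changes of dim genes are compressed.

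Log2 of the intensity was tested with limma 3.58.1 in R 4.3.3 (lmFit, eBayes with an intensity trend), two-sided, with Benjamini-Hochberg adjustment over all genes tested and calls below 0.05. Genes entered a fit if their probe set exceeded the 30th percentile of all probe sets on 3 or more of its arrays. The first and second experiments were fitted alone (8 arrays each) and the last as 15 arrays in 4 groups with an interaction term. The number of genes tested was 14008, 14030 and 15172. Groups came from the sample labels, which call the arrays biological replicates but do not say more of their source. Array columns left unmapped to a sample numbered 0.

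The members and gene lists were chosen with earlier results of these data known. Genes named are all 10 members, up to 4 called genes per list and comparison by size of change, Ern1 and Xbp1 as checks of the labels, and the 3 most correlated genes of each member with a mean intensity of at least 16. The fit was tested on simulated data, drawn from a normal distribution for each gene on its own. Changes were put only into genes at 16 or more, so every call below 16 was false by construction. No tunicamycin comparison was simulated. For Xbp1 ko minus WT littermates it called 183 genes there, 32 of them falsely, and 27 of these lay below 16. The same counts were 170, 29 and 26 for the siRNA comparison, and 154, 9 and 6 for untreated Ire1 ko minus WT. Among called genes at 16 or more, 3.21%, 2.08% and 2.03% were false, in that order. Log2 differences of 0.5 put into these data were called in 49.3%, 35.8% and 35.8% of cases. Alternatives were quantile normalization, a shift of brighter probe sets to a common median, averaged probe sets, a filter at a group mean of 16, no filter, no intensity trend, 1 fit over all arrays, a replicate block and leaving out each array. The number of arrays limits the precision, and values near the table's minimum move in whole steps.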

Additional observations from a re-analysis of the deposited data

Results flagged for a closer look

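Single arrays that stood apart from the other 3 of their group were looked for by Dixon's criterion, which chance meets in about 1 in 20 groups; 4 were found among 69 groups of members tested. Slco1b2 read 881 in replicate 1 of the arrays labelled IRE1 siRNA, against 759 to 771 in the other 3. Abcc4 read 37 in replicate 2 of WT with tunicamycin, against 10 to 14 in the others. Abcc4 read 4 in replicate 3 of the WT littermates of Xbp1 ko and 4 in replicate 3 of the arrays labelled luciferase siRNA, against 5 in all others of those groups, a step of 1 unit of the rounded table. The tunicamycin response of Slco1a4 differed between the genotypes by the interaction term, at 1.17 (limma adjusted p = 0.02061); it fell in 4 of 4 treated WT arrays below the lowest untreated one, while the Ire1 ko arrays overlapped.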

How the results depend on the processing

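Over 70 values, 10 genes in 7 comparisons, 1468 alternative values were computed. Of these 1379 kept sign and side of the threshold, 13 lost a call, 22 gained one, 54 changed sign while uncalled under both settings, and 0 changed sign with a call. The number of genes called in Xbp1 ko was 0, but 2 after brighter probe sets were brought to a common median and with a filter at a group mean of 16, 1 in 1 fit over all 31 arrays, and 0 to 1 leaving out 1 array. In untreated Ire1 ko it was 0, but 1 in the fit over all arrays. For the interaction it was 1, Slco1a4, but 2 after quantile normalization, 3 with the filter, and 1 to 2 leaving out 1 array. The genes that joined were Slco1a1 and Abcc3. In the fit over all arrays it was 2, Slco1a1 and Abcc3 (limma adjusted p = 0.03363 and 0.03864). There Slco1a4 lost its call (adjusted p = 0.1434). Medians moved with the common median for export genes in the siRNA comparison (-0.19 against -0.12), in WT with tunicamycin (-0.35 against -0.23) and in Ire1 ko with tunicamycin (-0.33 against -0.15), and for uptake genes there (-0.71 against -0.53). With averaged probe sets the uptake medians were -0.84 in WT and -0.34 in Ire1 ko with tunicamycin. That average took in the 2 probe sets of Slco1b2 near the floor, with means of 4.7 and 4.6. They gave -0.15 and -0.17 in WT and -0.30 and -0.21 in Ire1 ko, against -1.23 and -1.09 on the probe set used. The cause of the moved medians was not tested. Depth is not recorded on arrays, and signal close to the floor limits Abcc4 and Atp8b1.

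Groups share replicate numbers in the labels. Over 29 pairs of arrays with the same number the correlation of deviations lay between -0.18 and 0.29, with 8 over 0.1 and 5 under -0.1, so the numbers were not taken to pair the arrays. With the number as a replicate block, 0 genes instead of 1 were called in the siRNA comparison (Abcb4 at -0.95, limma adjusted p = 0.09515; 3 at an unadjusted p under 0.05 without the block). The other 6 comparisons kept their number of calls within 1.5 times.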
